A study of Mus musculus with 357 samples.

Results

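Lymphoid priming genes and Ikaros family members made up 7 of the 96 genes measured in single mouse hematopoietic stem cells (HSCs): Flt3, Notch1, Ikzf1, IKZF2, Dntt, Tcf7 and Ebf1. They were taken by gene name. The panel was read by quantitative PCR in 357 bone marrow cells of Col1a1-tetO-H2B-mCherry mice, in which a red histone label, once its production stops, is diluted each time a cell divides. All cells carried the stem cell phenotype Lin-Sca1+c-kit+CD48-CD150+. They were taken 2 weeks (plates of 90 and 93 cells) or 5 weeks (plates of 91 and 83 cells) after H2B-mCherry labelling. The sources used here do not give the transactivator that drives the tetO promoter, the age and sex of the mice, or their number. The mCherry signal of each cell was not used here, so the chase time does not say how often a given cell had divided.

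HSCs keep low-level expression of genes that belong to several later lineages, a state known as priming. Lymphoid priming is best known from multipotent progenitors that carry the cytokine receptor Flt3 on their surface. Ikaros (Ikzf1) and its relative Helios (Ikzf2) act as zinc finger regulators of chromatin and transcription. Notch1 signals toward the T lineage with Tcf7 as a target, and Ebf1 sets up the B lineage. Dntt encodes the terminal transferase that adds nucleotides at V(D)J junctions. The IKZF2 assay is spelled as in the human gene. Its mouse symbol is Ikzf2.

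The measured value was the threshold cycle (Ct), the cycle at which fluorescence crosses a threshold, so that a Ct lower by 1 stands for about 1 doubling more template. A gene was called detected in a cell at Ct 25 or below, and a product was called late when it came after Ct 18. To give a level, the Ct of a gene was subtracted from the mean Ct of 14 widely detected reference genes in the same cell, and the result was averaged over the cells with a product, on a log2-like scale. The reference genes were chosen by detection and not by a steady level. Their own level differences, 5 minus 2 weeks, ran from -0.69 (CDK4) to 0.95 (Nfe2). Because no animal is named, each chase time was treated as a single sample and no test between times was made. The only repeats were the 2 plates of each time, which may be technical repeats. The plates of a gene were called apart when both 5-week values exceeded both 2-week values, or both fell short of them. Plate and chase time cannot be told apart, and all intervals given are 95% and cover counting error only.

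The RNA of the sort markers differed between the times. Kit had a product in 98.9% (2 weeks) and 99.4% (5 weeks) of cells, and Cd48 in 2 and 3 cells. Ly6a, which encodes Sca1, was detected in 91.3% and 72.99%, and Slamf1, which encodes CD150, in 72.1% and 55.7%. Both were lower at 5 weeks with plates apart in share and also in level, by differences of -1.55 for Ly6a and -0.57 for Slamf1. The part of this in the results below was not tested. In contrast, the 5-week plates gave more products in general. A cell had 54.6 ± 5.36 (SD) detected genes at 2 weeks and 58.8 ± 5.71 at 5 weeks, and the mean reference Ct was 13.45 ± 0.53 and 12.96 ± 0.65. Both differences lie in the direction of more template at 5 weeks, and their part in the results that follow was not tested beyond the alternative settings described under the processing. None of the 14 markers of mature B cells, T cells or lymphoid progenitors looked for was on the panel.

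The 7 genes fell into 3 ranges of detection. Ikzf1 was found in about 9 of 10 cells, Flt3, Notch1 and IKZF2 in about 4 to 6 of 10, and Dntt, Tcf7 and Ebf1 in few or no cells. Between 2 and 5 weeks, 2 of the 7 (Ikzf1 and IKZF2) were detected in more cells with plates apart, where 42.7% of all 96 genes were. In the other direction, 1 of the 7 (Dntt) was detected in fewer cells with plates apart, against 7.29% of all genes. The remaining 4 had overlapping plates. With a single plate left at 1 time fewer values can overlap, and the count of higher shares was 4 without 5-week plate 2 and that of lower shares 2 without plate 1 of either time. The median difference in detection, 5 minus 2 weeks, was 0.13 percentage points over the 7 genes and 2.85 over all 96. The value for the 7 is that of Flt3. Dntt, Tcf7 and Ebf1, in few or no cells, had little room to fall. The differences of Ikzf1, Notch1 and IKZF2 were 4.03, 4.87 and 14.4 points.

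**Figure D1:**
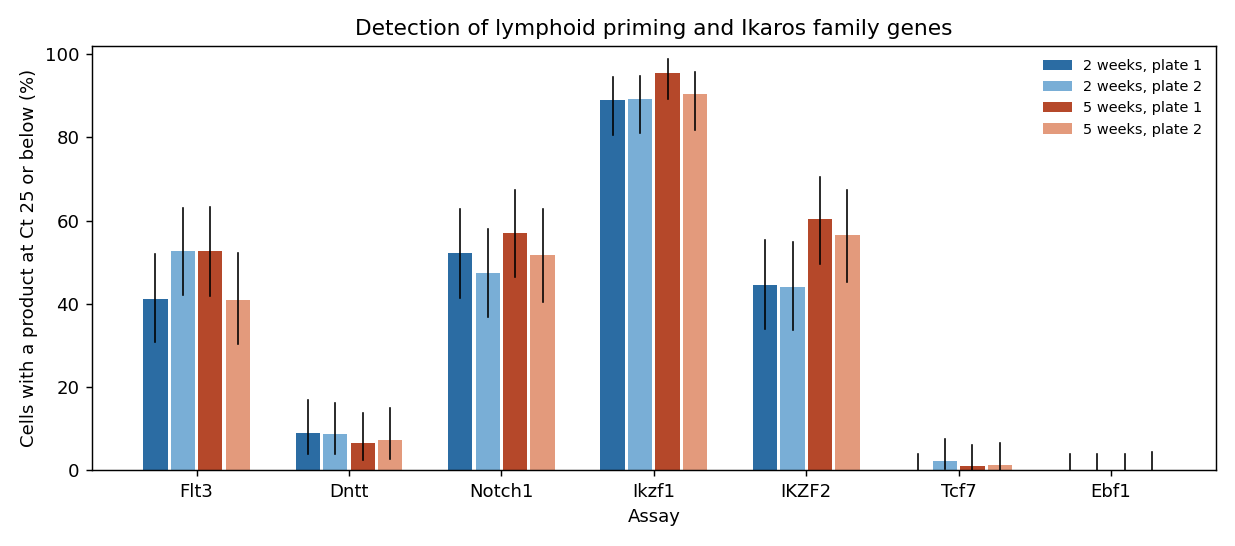
Percent of cells with a product at Ct 25 or below (vertical axis) for each of the 7 genes (horizontal axis) on the 2 plates of each chase time. Bars are plate shares and lines are exact Clopper-Pearson 95% intervals; the IKZF2 bars of both 5-week plates (60.4 and 56.6%) stand above those of both 2-week plates (44.4 and 44.1%), while the Flt3 bars cross.

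Flt3 was found in nearly equal shares of cells at both times, but much of its 5-week signal was faint. At 2 weeks 37 of 90 (41.1%) and 49 of 93 cells (52.7%) had a product, and at 5 weeks 48 of 91 (52.7%) and 34 of 83 (40.96%). The plates of each time differed from each other as much as plates of different times, and the pooled shares were 46.99% (39.6 to 54.5) and 47.1% (39.5 to 54.8). The difference was 0.13 points (Newcombe interval -10.1 to 10.4), and its sign turned with the plates: it was -5.56 without 2-week plate 1, -6.03 without 5-week plate 1, and 6.02 and 5.75 without the other two.

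The timing of the Flt3 products separated the plates. At 2 weeks nearly all products came early: the lowest, median and highest Ct were 12.64, 15.49 and 22.58 on plate 1 and 12.99, 15.40 and 22.78 on plate 2. At 5 weeks the corresponding values were 13.59, 16.62 and 24.52 on plate 1 and 13.76, 16.15 and 22.30 on plate 2. The 5-week distribution was shifted later and also had a long tail. The SD of Ct was 1.56 and 1.40 cycles on the 2-week plates and 2.67 and 2.46 on the 5-week plates. In the Ct band from 18 to 22 there were 0 cells at 2 weeks and 22 at 5 weeks, and in the band from 22 to 25 there were 2 and 7.

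Late products made up 1 of 37 and 1 of 49 Flt3 products at 2 weeks, and 20 of 48 (41.7%) and 9 of 34 (26.5%) at 5 weeks. Pooled, this was 2.33% against 35.4%. Of the 4 lymphoid and Ikaros genes with at least 10 detecting cells on every plate, Flt3 was the 1 whose late share was higher at 5 weeks with plates apart, against 17.5% of the 80 genes measured so, and 0 of the 4 were lower with plates apart, against 16.2%. The gain for Flt3 was rank 3 of 80, after Fos, an immediate early transcription factor, and Gata1, a master regulator of erythroid and megakaryocyte genes. EvaGreen, the dye used, binds any double-stranded DNA, and whether the late products were specific was not tested.

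Counting early Flt3 products alone gave another picture of the share. Cells with Flt3 at Ct 18 or below numbered 36 of 90 and 48 of 93 (51.6%) at 2 weeks, and 28 of 91 (30.8%) and 25 of 83 (30.1%) at 5 weeks. These plate values do not overlap, and the pooled shares were 45.9% and 30.5%, a difference of -15.4 points. How many of all 96 genes were lower with plates apart at this limit was not counted. At Ct 25, 7.29% were. Accordingly the level of Flt3 was lower at 5 weeks: -2.05 ± 1.76 (SD over cells) and -1.97 ± 1.40 at 2 weeks against -4.81 ± 2.68 and -3.72 ± 2.57 at 5 weeks. The difference of -2.36 (single plate comparisons -2.84 to -1.68) was rank 3 from the bottom among the 80 genes and -2.22 relative to their median. When late products were left out it was -0.91.

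Notch1, the transmembrane receptor, was the least variable of the frequent members. It was detected in 47 of 90 (52.2%) and 44 of 93 cells (47.3%) at 2 weeks and in 52 of 91 (57.1%) and 43 of 83 (51.8%) at 5 weeks. The plates overlapped, with a pooled 49.7% (42.3 to 57.2) and 54.6% (46.9 to 62.2) and a difference of 4.87 points (-5.45 to 15.0). It was 0.754 points with the number of other detected genes as a covariate, 2.38 without 2-week plate 2 and 2.08 without 5-week plate 1. Without 2-week plate 1 or 5-week plate 2 it was 7.29 or 7.42, and the plates left were then apart. All 186 products came between Ct 13.13 and 16.62, and none was late. This span of 3.50 cycles was the second smallest of the 80 genes.

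Where Notch1 was detected, its level relative to the 14 reference genes hardly moved. It was -1.59 ± 0.67 and -1.65 ± 0.82 on the 2-week plates and -1.61 ± 0.85 and -1.51 ± 0.68 on the 5-week plates. The difference of 0.06 (plate comparisons -0.02 to 0.14) lies well inside the spread between cells. The Ct itself was lower at 5 weeks, with medians of 14.90 and 14.97 against 14.34 and 14.76, by about as much as the reference Ct. Without the reference the difference was 0.49, and with Actb and Gapdh as the only reference 0.45. By medians it was 0.09, and relative to the median gene 0.19. In each of these settings the plates were apart, with the level higher at 5 weeks. The 2 receptors were thus detected in similar shares of cells, one with all products in a narrow band and the other with a late tail on the 5-week plates.

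**Figure D2:**
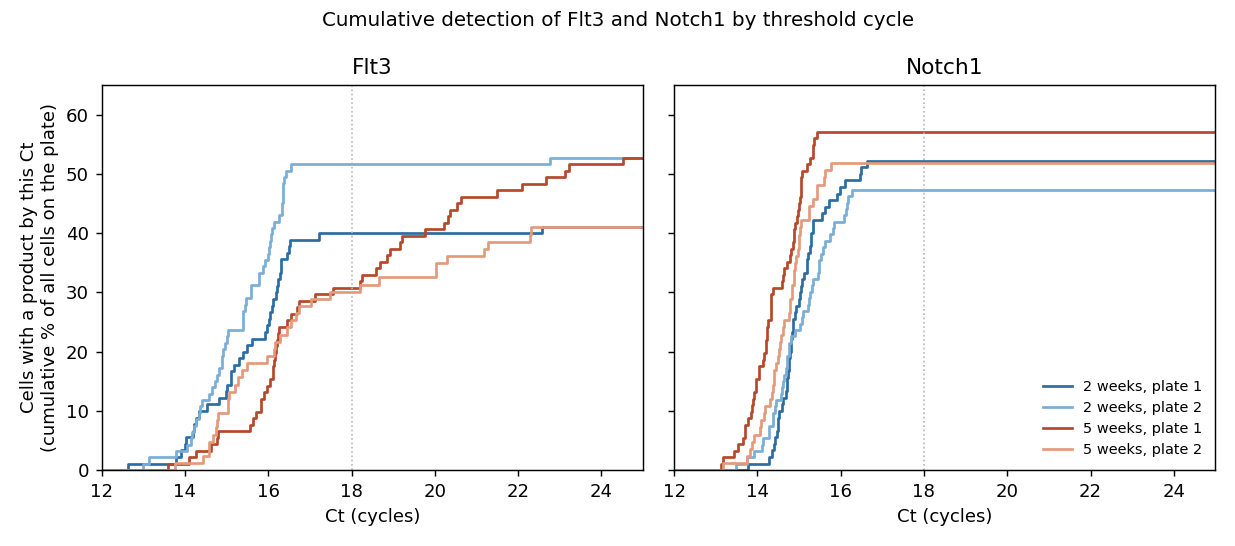
Cumulative percent of all cells on a plate with a product by a given Ct (horizontal axis, cycles) for Flt3 and Notch1; each line is 1 plate and the dotted line marks Ct 18. The 2-week Flt3 lines are almost flat after Ct 18 while the 5-week lines climb from 30.8 and 30.1% to 52.7 and 40.96%; the Notch1 lines are flat after Ct 16.62 on every plate.

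Ikzf1 was the most widely detected of the 7 genes. Plate shares were 88.9% (80 cells) and 89.2% (83) at 2 weeks and 95.6% (87) and 90.4% (75) at 5 weeks. Both 5-week plates lay above both 2-week plates, though the closest pair was 1.11 points apart. The pooled shares of 89.1% (83.6 to 93.2) and 93.1% (88.3 to 96.4) differed by 4.03 points, with an interval of -2.03 to 10.1 that includes 0. The plates overlapped at a limit of Ct 18 (85.6 and 88.2% against 94.5 and 86.8%), within matched reference Ct, and when the reference Ct or the number of other detected genes was a covariate, which gave differences of 1.11 and 1.77 points.

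Among detecting cells the Ikzf1 level was -2.32 and -2.37 at 2 weeks and -2.56 and -2.65 at 5 weeks. Relative to the reference genes it was therefore lower by 0.26 with plates apart, but the sign rests on the reference: without it the difference was 0.24 in the other direction, with Actb and Gapdh as the only reference 0.13, and over all cells 0.11. Late products were rare, 4 at each time. Ikzf1 also followed the reference Ct across cells, at a Spearman correlation of 0.22 to 0.39 by plate.

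Of the 7 genes, IKZF2 (Helios) had the largest gain in share. It was detected in 40 of 90 (44.4%) and 41 of 93 cells (44.1%) at 2 weeks and in 55 of 91 (60.4%) and 47 of 83 (56.6%) at 5 weeks. Plates of 1 time were closer to each other than to any plate of the other time. The pooled shares were 44.3% (36.9 to 51.8) and 58.6% (50.9 to 66.02), a difference of 14.4 points (3.99 to 24.3; plate comparisons 12.2 to 16.4) that was rank 17 among the gains of the 96 genes.

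The IKZF2 level in detecting cells went the opposite way. It was -2.63 ± 0.77 and -2.83 ± 1.68 at 2 weeks and -3.17 ± 1.97 and -3.74 ± 2.53 at 5 weeks, a difference of -0.70 (-1.11 to -0.33) with plates apart. The plates overlapped, and the difference was smaller, without the reference genes (-0.295) and with Actb and Gapdh alone as reference (-0.33). Late products numbered 0 of 40, 4 of 41, 3 of 55 and 6 of 47 in plate order, and their shares overlapped between the times. At Ct 18 or below the level difference was -0.31, and over all cells, where a missing product counts at the limit, it was 0.61. Another 7 products on 5-week plate 1 and 1 on 2-week plate 2 came after Ct 25 and were not counted as detected. The early products alone gave shares of 44.4, 39.8, 57.1 and 49.4%, still with both 5-week plates higher. At Ct 25 this held for 42.7% of all 96 genes, and at Ct 18 it was not counted.

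Over the 4 genes with a measured level, 0 (1 without plate 1 of either time) were higher at 5 weeks with plates apart, where 30.0% of the 80 genes were, and 3 (Flt3, Ikzf1 and IKZF2) were lower, where 43.8% were. These counts depended on the reference. Without it, 2 were higher (Notch1 and Ikzf1) and 1 lower (Flt3); with Actb and Gapdh 1 was higher (Notch1) and 1 lower (Flt3); relative to the median gene 1 was higher (Notch1) and 2 lower (Flt3 and IKZF2). Their median level difference was -0.48, against -0.13 over the 80 genes.

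**Figure D3:**
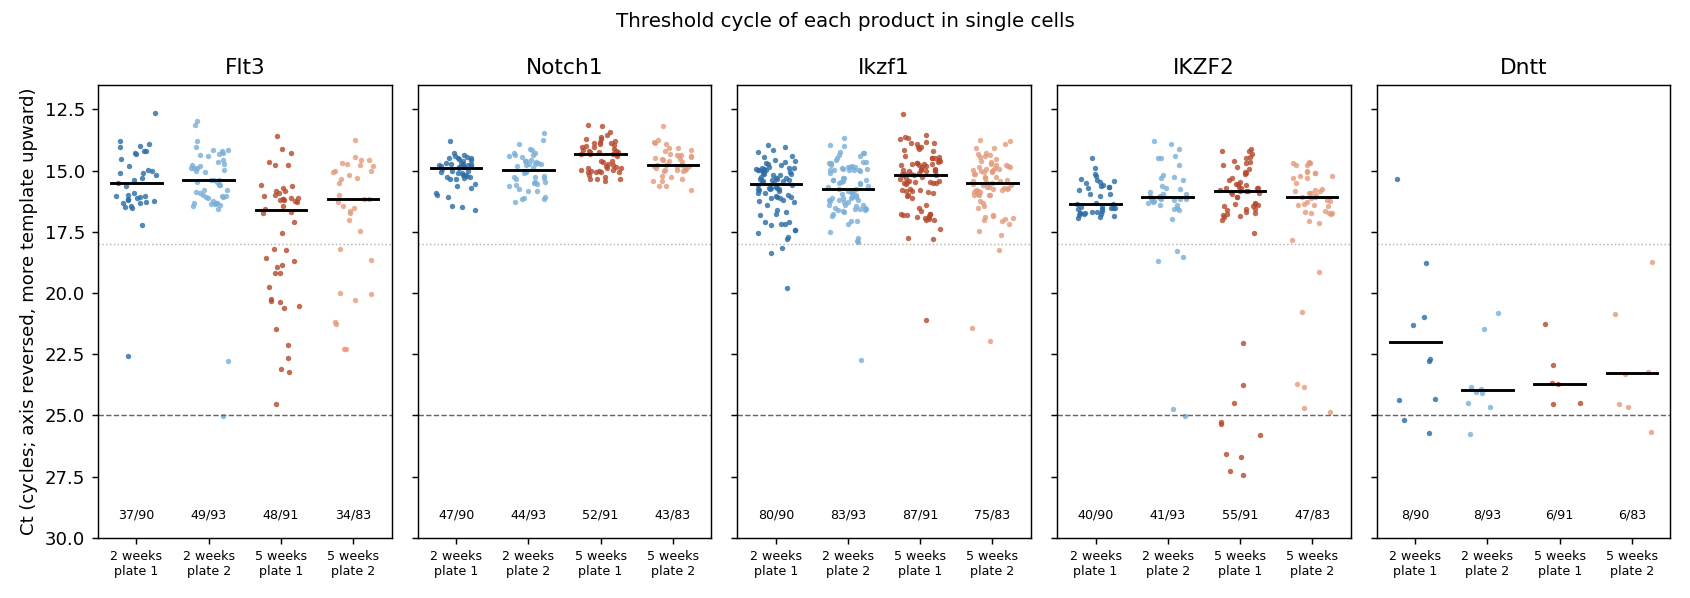
Ct of each product (vertical axis, cycles, reversed so that more template is higher) for the 5 genes with more than 4 products in all, by plate; each point is 1 cell, black bars are medians, the dashed line is the detection limit of Ct 25, the dotted line Ct 18, and the fractions give detecting cells of all cells. Notch1 products all lie above the dotted line, nearly all Dntt products lie below it, and Flt3 points spread below it on the 5-week plates.

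Dntt was seen in few cells and almost always as a faint product. It was detected in 8 of 90 and 8 of 93 cells at 2 weeks and in 6 of 91 and 6 of 83 at 5 weeks. The plate shares were 8.89, 8.602, 6.59 and 7.23%, both lower at 5 weeks, and the pooled shares of 8.74% (5.08 to 13.8) and 6.90% (3.61 to 11.7) differed by -1.85 points. The interval of the difference ran from -7.62 to 3.95, and in cells of matched reference Ct the difference was 2.58 points the other way. The plates overlapped in those cells and at limits of Ct 23 and Ct 18. Of the 28 products 27 were late (96.4%), with a median Ct of 23.5. The exception was 1 cell on 2-week plate 1 at Ct 15.34.

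Tcf7 and Ebf1, the T-lineage and B-lineage transcription factors, were close to or at 0. Tcf7 was detected in 4 of 357 cells, 1.12% (0.31 to 2.84): 2 cells on 2-week plate 2, at Ct 14.03 and 14.59, and 1 cell on each 5-week plate, at Ct 23.35 and 21.6. Ebf1 gave no product in any of the 357 cells, which allows a share of up to 0.84% by a limit of 3 counts (1.03% by the exact interval). Whether the Ebf1 assay works was not tested, since no cell type known to express it was on these plates.

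Of 37 other genes of lymphoid regulation and Notch signalling looked for, 3 were on the panel. Tcf3 encodes the E2A proteins, which drive B-cell commitment, and was detected in 95.6% of 2-week cells and in every 5-week cell, with a level 0.80 higher at 5 weeks. Runx1, a core-binding factor needed to form HSCs, was detected in 91.3 and 98.9% of cells with a level 0.25 higher. Sfpi, kept under the name in the files and known as an older name of the gene for PU.1, was detected in 74.9 and 87.4% of cells with a level difference of -0.03 and overlapping plates. All 3 shares were higher with plates apart, where 42.7% of all genes were, as were the levels of Tcf3 and Runx1, where 30.0% of genes were.

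Single cells most often held 2 or 3 of the 7 transcripts. The mean number per cell was 2.36 and 2.44 on the 2-week plates and 2.74 and 2.48 on the 5-week plates, or 2.40 ± 1.02 (SD over cells) and 2.61 ± 1.02 pooled. The difference of 0.22 genes was 0.03 with late products left out, and 0.083 without 5-week plate 1. In all, 6 cells had none of the 7, 5 cells had 5, and no cell had more. Flt3, Notch1, Ikzf1 and IKZF2 were found together in 52 cells, 23 at 2 weeks (12.6%) and 29 at 5 weeks (16.7%).

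**Figure D4:**
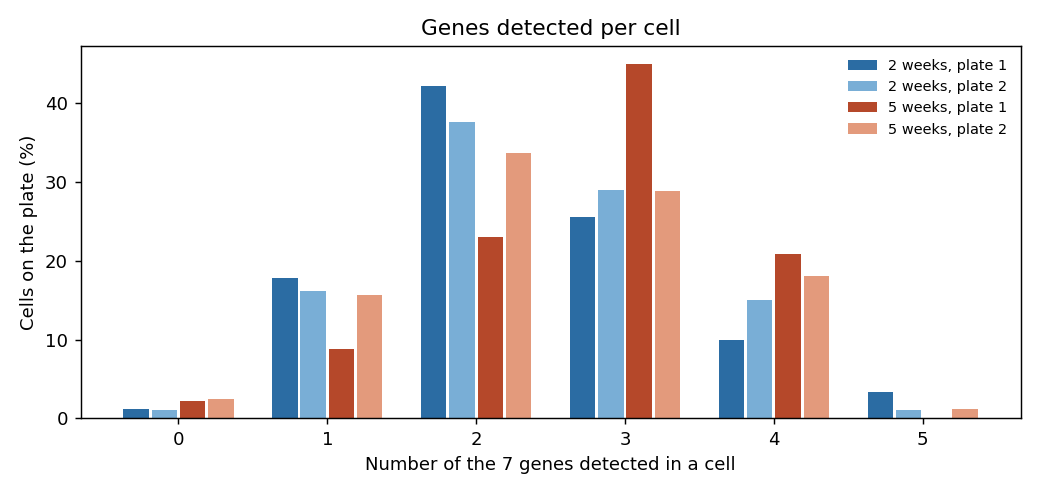
Percent of cells on a plate (vertical axis) by the number of the 7 genes detected in a cell (horizontal axis); each colour is 1 plate. Plate 1 at 5 weeks peaks at 3 genes (45.05% of cells) and the other plates at 2 genes.

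Most pairs of these genes met in cells about as often as their separate shares would give, within a ratio of 0.97 to 1.11 for 8 of 10 pairs. Over the 4 plates, Flt3 and Notch1 were detected together in 93 cells against 87.6 from the product of their plate shares, and Notch1 and IKZF2 in 96 against 96.1. The pair of Flt3 and IKZF2 was found in 96 cells against 86.3, above the product on 3 plates and not on 5-week plate 1. Of the 10 pairs among the 5 genes detected on every plate, 3 lay on the same side of the product on all 4 plates: Ikzf1 with IKZF2 and with Notch1 above it, by ratios of 1.02 and 1.01, and Ikzf1 with Dntt below it (22 cells against 25.4). The gaps could be smaller than 1 cell. On 2-week plate 1 these pairs had 36 cells against 35.6, 42 against 41.8 and 7 against 7.11. The tenth pair, IKZF2 with Dntt, was found in 17 cells against 14.1, above the product on 3 plates. Without 5-week plate 1, 6 pairs kept to 1 side on the plates left. The share of all gene pairs that keep to 1 side was not computed, so these counts have no background.

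Flt3 met genes of the megakaryocyte and erythroid lineages in fewer cells than the product of shares. Flt3 and vwf, which encodes the clotting protein von Willebrand factor and marks platelet-biased HSCs, were found together in 51 cells against 71.5, a ratio of 0.71. The count was below the product on all 4 plates. Flt3 also met Gata1 (19 against 26.3) and Epor, the erythropoietin receptor (34 against 43.7), less often than the product on all 4 plates. The same held for Itga2b, the megakaryocyte integrin CD41 (68 against 76.9). Some of these gaps were smaller than 1 cell. Gata1 had 4 against 4.52 and 5 against 5.27 on the 2-week plates. Epor had 6 against 6.58 on 2-week plate 1. On 5-week plate 2, Epor had 8 against 8.6 and Itga2b 15 against 15.2. Notch1, Ikzf1 and IKZF2 showed no such side on all 4 plates with any of these 4 genes. Here too, no count over all gene pairs was made.

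In the correlation across cells of a plate, Flt3 was most like Cd34, a surface sialomucin that marks progenitors. Spearman's rho was between 0.25 and 0.49 on the 4 plates, with missing products placed at Ct 25, and between 0.26 and 0.46 after the reference Ct of each cell was subtracted. Next came Hk3, a hexokinase (0.18 to 0.33), and Hlf, a transcription factor of stem cells (0.14 to 0.28). After the same subtraction Hk3 was at 0.13 to 0.41 and Hlf, itself a reference gene, at 0.09 to 0.28. The most negative genes on their weakest plate were vwf (-0.34 to -0.27), Mllt3 (-0.31 to -0.19) and Zfpm1, the Gata1 cofactor (-0.30 to -0.15). Zfpm1 is also a reference gene. After the subtraction they were at -0.34 to -0.27, -0.21 to -0.12 and -0.31 to -0.20. Over cells with both products vwf ran from -0.55 to 0.22, while Mllt3 and Zfpm1 stayed negative. All of these are descriptions over 83 to 93 cells a plate, fewer where both products were needed. The cells of a plate share a chip and a pre-amplification.

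The other members had weaker neighbours. Notch1 was most like Hk3 (0.10 to 0.28), followed by Zfp612 (0.07 to 0.20) and Lyl1 (0.07 to 0.18). Ikzf1 was most like Lmo2 (0.23 to 0.43), Ldb1 (0.23 to 0.34) and Kit (0.22 to 0.35), and these 3 are reference genes. Once the reference Ct was subtracted, the weakest plate of Kit was at 0.04 and those of the other two were lower. IKZF2 was most like its relative Ikzf1 (0.09 to 0.33), then Sfpi (0.08 to 0.20) and Flt3 (0.03 to 0.23).

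The early and late Flt3 products went with different shares of vwf. At 5 weeks, where 29 of the 31 late products were found, vwf was detected in 55 of 92 cells without Flt3 (59.8%; 49.04 to 69.9), 17 of 53 with early Flt3 (32.1%; 19.9 to 46.3) and 17 of 29 with late Flt3 (58.6%; 38.9 to 76.5). The late and early shares differed by 26.5 points, or 33.98 when both times were pooled, a value that mixes the chase time with the timing of the product because 84 of the early cells were 2-week cells. At 2 weeks, 46 of 97 cells without Flt3 (47.4%) and 16 of 84 with early Flt3 (19.05%) had vwf. By plate, cells without Flt3 had vwf in 47.2, 47.7, 58.1 and 61.2%, and cells with early Flt3 in 13.9, 22.9, 32.1 and 32% (8 of 25), lower on every plate. The late products of the 5-week plates went with vwf in 12 of 20 and 5 of 9 cells, close to the cells without Flt3 on the same plates, and the 2-week plates held only 1 late cell each. This split was made after the values were seen and is a description. With the boundary at Ct 17 and both times pooled, the early and late shares were 21.2 and 63.9%, and at Ct 20 they were 24.3 and 75%.

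Cells with late Flt3 products had no fewer detected genes than the others. At 5 weeks, cells with late Flt3 had 60.9 detected genes on average, cells with early Flt3 58.6 and cells without Flt3 58.3. These counts include Flt3 itself, which the last class lacks by definition. Their mean reference Ct was 13.13 ± 0.77 (SD over cells), 12.95 ± 0.58 and 12.91 ± 0.65, which mixes plates with unlike shares of late cells. On plate 1 it was 13.06, 12.86 and 12.71, and on plate 2 it was 13.26, 13.06 and 13.07. The cells with late products thus had less reference template on both plates. Whether these gaps exceed counting error was not tested.

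**Figure D5:**
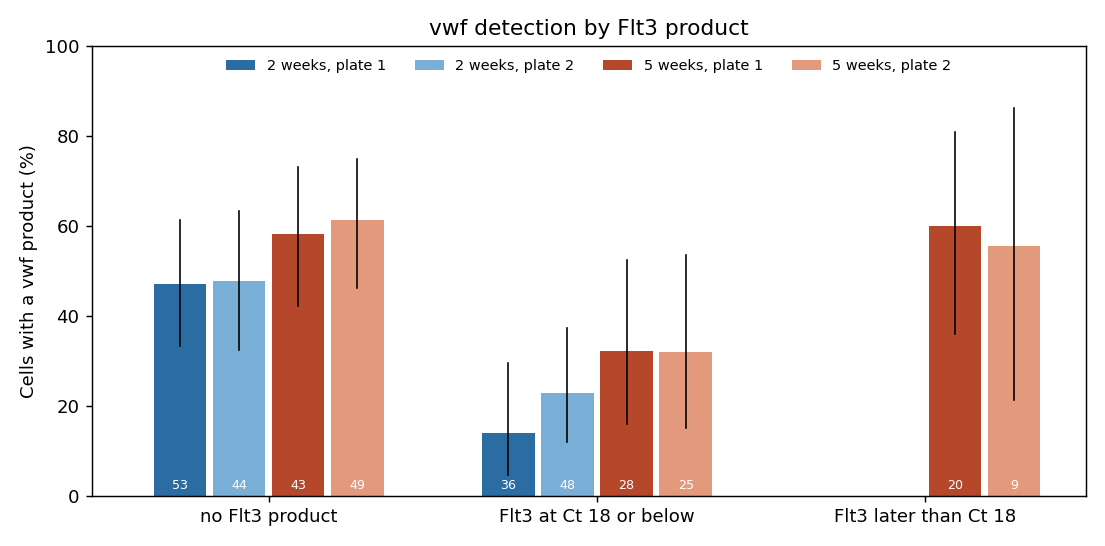
Percent of cells with a vwf product (vertical axis) in cells without Flt3, with Flt3 at Ct 18 or below, and with Flt3 later than Ct 18, by plate; lines are exact Clopper-Pearson 95% intervals, numbers in the bars are cells, and the 2-week plates are not drawn in the last class because each held 1 such cell. The early Flt3 bars (13.9 to 32.1%) are lower than the bars without Flt3 (47.2 to 61.2%).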

How the data were processed

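Single cells were assayed by RT-qPCR after 22 cycles of multiplex pre-amplification and a 5-fold dilution, with 30 cycles of EvaGreen qPCR on a microfluidic array, per the labels' protocols. The authors deposited the Ct of each gene and cell, a score that was not normalized, with 999 for no product; the sources used here do not give the software and threshold that set it. Of 34272 reactions 13989 (40.8%) had no product, and 60 products were later than Ct 25. Groups and plates came from the labels. No 2 cells had identical values.

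Every plate had the 14 reference genes in 95% or more of its cells: Kit, Gata2, Lmo2, Ldb1, Meis1, Hlf, Nfe2, Zfpm1, Etv6, Ccnd2, CDK4, Trp53, Actb and Gapdh. Levels and late shares needed at least 10 detecting cells on every plate (80 genes), and correlations detection in 10% of cells on every plate (81 genes). For each such member the 3 highest and 3 lowest genes by rho on the weakest plate were named; the lowest for Notch1, Ikzf1 and IKZF2, all within 0.05 of 0 there, were left out, as was 1 gene not reported here. The members and lists were chosen with earlier results of these data known. The share differences, level differences and calls of plates apart were tested on simulated plates without plate effects or late tails. The other steps were not tested so. Python 3.11.15, pandas 2.3.3, numpy 2.4.6, scipy 1.17.1 and statsmodels 0.14.6 were used.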

Additional observations from a re-analysis of the deposited data

How the results depend on the processing

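The number of the 7 genes with a higher share and plates apart was 2, and 1 with products limited to Ct 18, with the reference Ct or the number of other detected genes as a covariate, or within a 0.5-cycle window of reference Ct (52, 66, 45 and 49 cells by plate); leaving out a plate gave 2 to 4. The number with a lower share was 1 (Dntt), and 0 at Ct 23 and in the window, with 1 to 2 without a plate. At Ct 18 it was again 1, but that gene was Flt3, and the Dntt plates overlapped. The number at a higher level was 0, and became 2 without centring and 1 with Actb and Gapdh, over all cells, by medians or relative to the median gene, with 0 to 1 without a plate. The number at a lower level was 3, 2 relative to the median gene, and 1 without centring, with Actb and Gapdh or over all cells. The mean number of genes per cell differed by 0.22, by 0.031 at Ct 18, and by 0.083 to 0.337 without a plate. Pairs on 1 side of the product numbered 3, 1 at Ct 18 and 3 to 6 without a plate. Of the 24 genes picked for the highest or lowest rho, 13 were picked again after centring, 13 by Pearson's r and 10 over cells with both products. Among genes with plates apart, signs turned for Dntt (2.58 points in the window), the Ikzf1 level (0.24 without centring, 0.13 with Actb and Gapdh, 0.11 over all cells) and the IKZF2 level (0.61 over all cells). Among overlapping genes, the Flt3 share difference of 0.13 points became -15.4 at Ct 18, -1.59 at Ct 23, -0.41 with any product and -0.044 with equal weight of plates, and ran from -6.03 to 6.02 without a plate; that of Tcf7, 0.057, became -1.09 at Ct 18 and -0.52 at Ct 23, and ran from -1.001 to 1.15 without a plate. With both times pooled, the difference in vwf between late and early Flt3 was 33.98 points, 42.7 at Ct 17 and 50.7 at Ct 20. It was 28.9 to 36.8 without a plate, and these pooled values mix the chase time with the timing of the product. On the 5-week plates alone the difference was 26.5 points. The cause of these changes was not tested. The logistic fits need 4 cells of each kind on every plate, so Tcf7 and Ebf1 could not be fitted. Single cells of unnamed mice and 2 plates a time limit what any difference shows. No paired analysis was possible because the labels tie no plate or cell of 1 time to any of the other.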
